A study of Mus musculus with 23 samples.

Results

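The genes described here are 5 CXC chemokine genes whose proteins attract neutrophils in the mouse, Cxcl1, Cxcl2, Cxcl3, Cxcl5 and Cxcl15, and the receptor gene Cxcr2. They were taken as the rows of the deposited count table whose Ensembl ID carries one of these 6 symbols, out of 41388 gene rows. All 6 passed the filter on low counts and are among the 17148 genes tested. Lung RNA of male Balb/c mice was sequenced, 1 library per mouse, and the mouse numbers from the labels name the libraries here.

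There were 3 libraries of mice kept on clean air (air) and 5 in each of 4 groups given lipopolysaccharide: LPS alone (called LPS), and LPS followed by native, oxidized or recombinant AAT (LPS+nAAT, LPS+oxAAT, LPS+recAAT). Lipopolysaccharide (LPS), the endotoxin of bacterial cell walls, was inhaled as an aerosol of 0.21 mg/ml in sessions of 10 min on 3 days, and the air group inhaled clean air. The AAT groups also received human alpha1-antitrypsin (AAT), a plasma inhibitor of neutrophil elastase, into the peritoneum at 4 mg/kg 1 h after each exposure, as a native (nAAT), oxidized (oxAAT) or recombinant (recAAT) preparation. The labels give saline by the same route as the other treatment, without tying it to a title group, and the experiment ended 6 h after the final dose. The AAT was human and the host a mouse. The labels give no age and no genotype beyond the strain. A peptide of AAT that they mention was not analysed here.

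CXC chemokines that carry a Glu-Leu-Arg motif before their first cysteines bind Cxcr2, a G protein-coupled receptor of neutrophils, and guide these cells out of blood and into tissue. Endotoxin, IL-1, TNF and IL-17 raise transcription of the inducible ligand genes, largely through NF-kB, and AU-rich elements in the 3′ untranslated region make their mRNAs short-lived. In the lung, Cxcl1 (KC) and Cxcl2 (MIP-2) come from macrophages, endothelium and epithelium, and Cxcl5 (LIX) from alveolar epithelium, whereas Cxcl15 (lungkine) is made by lung epithelium without a stimulus.

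The chemokine genes lie on the plus strand of chromosome 5 within 146.579 kb (GRCm38). Their order is Cxcl5 (chr5:90759360-90761624), Cxcl3 (chr5:90786103-90789600), Cxcl15 (chr5:90794534-90803067), Cxcl1 (chr5:90891241-90893115) and Cxcl2 (chr5:90903871-90905938). Cxcr2 lies on the plus strand of chromosome 1 (chr1:74153989-74161246). No other gene shares exon bases with any of the 6. A predicted microRNA gene on the opposite strand lies within Cxcl15, with 0 shared exon bases. Cxcl2 and Cxcl3 are close copies: 5.75% of the 50-base words of the principal Cxcl2 transcript also occur in Cxcl3, and 6.31% of those of Cxcl3 occur in Cxcl2, so a small share of their reads cannot be assigned. Cxcl1 shared 0 such words with any other gene.

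Promoters are shown because Cxcl1, Cxcl2, Cxcl3 and Cxcl5 rose after LPS and Cxcl15 did not pass the test. Promoters of 5 of the 6 genes were matched in the RefSeq table used (GRCm38.p6), and that of Cxcl5 was not analysed here. Each line gives the 150 bases that end 1 base before the RefSeq start, 5′ to 3′ on the plus strand, with matches to the NF-kB consensus and to TATAAA in capitals. The positions are chr5:90891095-90891244, chr5:90903749-90903898, chr5:90785951-90786100, chr5:90794384-90794533 and chr1:74153844-74153993.
Cxcl1: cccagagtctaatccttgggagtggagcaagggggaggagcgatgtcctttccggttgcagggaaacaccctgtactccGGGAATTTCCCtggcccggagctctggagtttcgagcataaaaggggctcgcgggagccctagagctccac
Cxcl2: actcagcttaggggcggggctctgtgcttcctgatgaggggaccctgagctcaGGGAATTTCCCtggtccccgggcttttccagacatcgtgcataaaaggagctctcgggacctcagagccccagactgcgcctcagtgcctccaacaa
Cxcl3: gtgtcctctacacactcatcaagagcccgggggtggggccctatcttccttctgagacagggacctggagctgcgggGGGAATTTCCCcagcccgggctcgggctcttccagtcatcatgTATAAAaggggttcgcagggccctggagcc
Cxcl15: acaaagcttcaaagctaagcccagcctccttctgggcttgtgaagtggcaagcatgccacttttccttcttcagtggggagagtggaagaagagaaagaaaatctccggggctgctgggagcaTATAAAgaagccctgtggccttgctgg
Cxcr2: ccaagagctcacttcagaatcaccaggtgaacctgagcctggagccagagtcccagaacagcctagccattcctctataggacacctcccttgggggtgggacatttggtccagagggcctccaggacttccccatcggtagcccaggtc
Cxcl1, Cxcl2 and Cxcl3 each hold the run GGGAATTTCCC, in which matches on the plus and the minus strand overlap. The match on the plus strand starts 71, 97 and 73 bases before the RefSeq start, respectively. Neither Cxcl15 nor Cxcr2 held a match in the window searched, from 250 bases before to 50 after the start. Over all 32851 RefSeq promoters of that length, 4.51% held a match on either strand. TATAAA was found 30 bases before the start in Cxcl3 and 27 bases before it in Cxcl15, against 13.6% of all promoters. The AP-1 letters TGANTCA (7.81% of promoters) were in none of the 5. The C/EBP letters TTNCNNAA (40.7%) were in Cxcl2 alone, 236 bases before the start. A match is a description of letters, not of a factor bound there.

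The AU-rich pentamer ATTTA, which marks unstable mRNAs of this class, was counted in the 3′ untranslated region of each principal GENCODE transcript. Cxcl2 had 11 copies, Cxcl1 had 7, Cxcl3 and Cxcl5 had 5 each, and Cxcl15 and Cxcr2 had 2 each. The median over 19374 coding genes was 1. As many copies as in Cxcl2 were found in 5.19% of these genes, and as many as in Cxcl1 in 12.8%. The densest 30-base windows of the 5 chemokine genes are shown, with ATTTA in capitals, to set the inducible genes beside Cxcl15.
Cxcl1: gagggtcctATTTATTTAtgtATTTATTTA
Cxcl2: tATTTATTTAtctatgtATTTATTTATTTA
Cxcl3: caagatggcatcttATTTAatgtttATTTA
Cxcl5: agcttcctgctcatctcacaagtgtATTTA
Cxcl15: tttaatattttattataaatgttttATTTA
The window starts 79 bases after the stop codon in Cxcl1, 123 in Cxcl2, 181 in Cxcl3, 121 in Cxcl5 and 114 in Cxcl15. It holds 4 copies in Cxcl1, 5 in Cxcl2, 2 in Cxcl3 and 1 each in Cxcl5 and Cxcl15, so Cxcl5 did not differ from Cxcl15 in this count.

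Reads counted to genes numbered 14.8 to 47.9 M in a library. Levels are CPM, reads of a gene per 1 M reads of the library, scaled by TMM. A split of unlabelled origin runs through the libraries and shows in mt-Nd6, transcribed from the other mitochondrial strand, when its count is taken as a share of mt-Nd5. That share was 0.338% to 1.14% in 15 libraries, called the first set here. In the other 8, called the second set, it was 3.39% to 4.5%. The second set holds every LPS+recAAT mouse and LPS+oxAAT mice 5103, 5104 and 5105, and the remaining mice are in the first. A recAAT effect and a set effect can thus be separated only by way of the oxAAT mice, which are in both. The tissue label was checked on its markers: the summed level of 8 alveolar type 2 genes was 26882 to 36003 CPM over all mice, and that of 6 heart muscle genes 39.5 to 733 CPM, most of that range (44.1 to 733) within the LPS+oxAAT group. In lung homogenate, more cells of a type and more RNA per cell cannot be told apart.

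LPS against air compares inhaled endotoxin with clean air. Cxcl1, Cxcl2, Cxcl3 and Cxcl5 rose and Cxcl15 and Cxcr2 did not pass the test. Of all genes tested, 2.71% were called higher, a call being an adjusted p under 0.05 (edgeR quasi-likelihood test, Benjamini-Hochberg over all genes tested). Where groups are said not to overlap, the share of all genes without overlap is not given, so this describes the values only.

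Cxcl3 encodes a ligand close in sequence to Cxcl2. It was at 1.77, 1.10 and 0.718 CPM in air mice 2101, 2102 and 2105, and at 34.8, 37.9, 24.3, 25.4 and 57.9 CPM in LPS mice 1101 to 1105. Every LPS mouse lay above every air mouse, and mouse 1105 was the highest. The log2 fold change was 4.90 ± 0.55 (SE; adjusted p = 7.67e-06), or 30.0-fold with a 95% interval of 13.6 to 65.9. The air levels rest on 19 to 49 counts per library.

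Cxcl5, the ligand of alveolar epithelium, was at 0.902, 0.486 and 0.643 CPM in air and at 9.74, 7.76, 5.19, 5.20 and 10.6 CPM in LPS. The groups did not overlap, and mouse 1105 was again the highest. The fold was 11.4 (95% interval 5.43 to 23.8; adjusted p = 0.000132), from 15 to 25 counts per air library. Its interval overlaps that of Cxcl3.

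Cxcl1 and Cxcl2 had smaller fitted rises, whose intervals overlap that of Cxcl5, and the difference between genes was not tested. Cxcl1 was at 4.22, 2.37 and 2.65 CPM in air and at 13.3, 9.06, 10.6, 11 and 18.9 CPM in LPS, a 4.10-fold rise (95% interval 2.78 to 6.04; adjusted p = 2.92e-05). For Cxcl2 the air mice gave 2.13, 1.85 and 2.23 CPM and the LPS mice 7.63, 6.91, 5.78, 4.92 and 14 CPM, a 3.80-fold rise (2.42 to 5.96; adjusted p = 0.000338). Neither gene overlapped between the groups, and mouse 1105 was the highest for both. Without mouse 1105 the log2 fold change of Cxcl2 was 1.62 in place of 1.92.

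Cxcl15, the epithelial chemokine, was at 1411, 1206 and 1830 CPM in air and at 1545, 1449, 1218, 1284 and 1763 CPM in LPS. These ranges overlap throughout. The log2 fold change was -0.03 ± 0.16 (adjusted p = 0.95), with a 95% interval for the fold of 0.781 to 1.23.

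Cxcr2, the receptor, was at 13.4, 18 and 11.1 CPM in air and at 15.9, 20.5, 22.6, 28.5 and 31.0 CPM in LPS. Only LPS mouse 1101 lay within the air range. The log2 fold change was 0.74 ± 0.25 and did not pass (adjusted p = 0.0942). It passed under the DESeq2 Wald test (adjusted p = 0.0343).

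**Figure D1:**
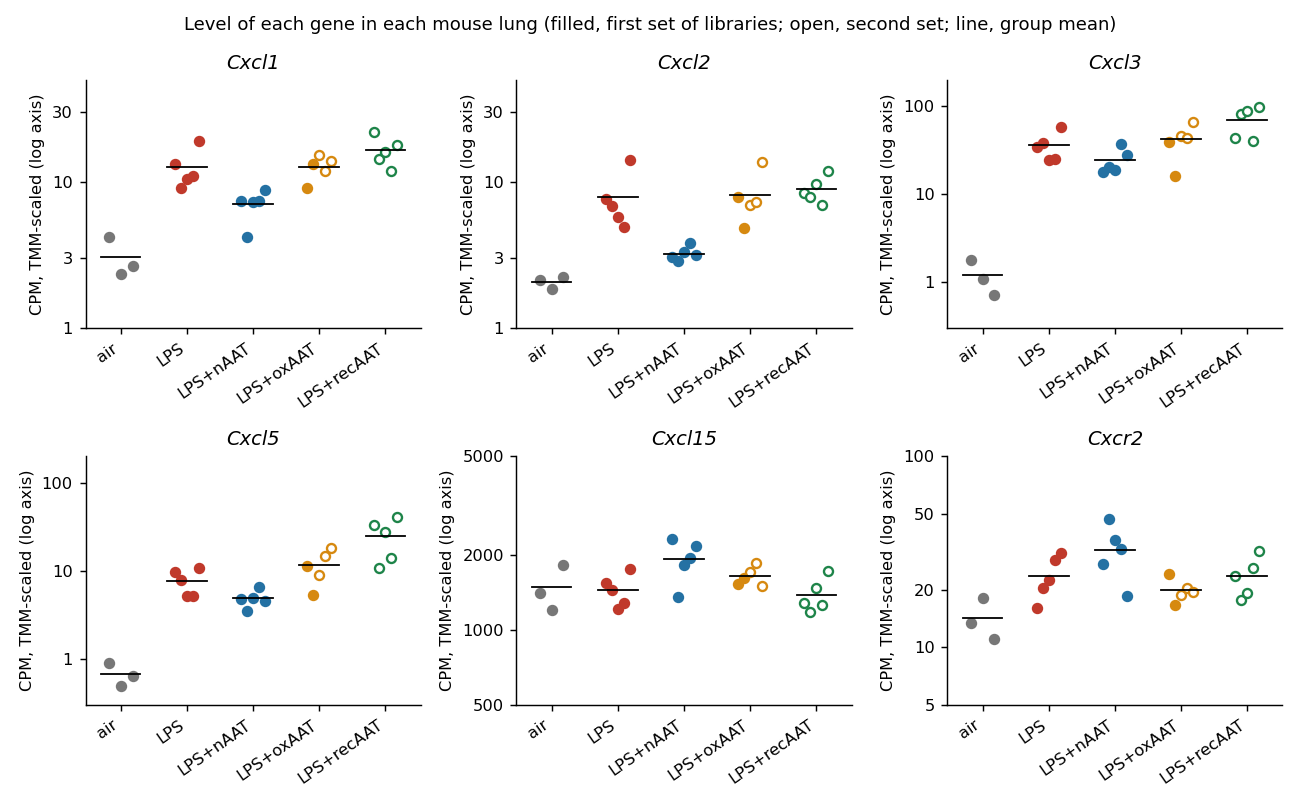
Level of each of the 6 genes (CPM, log axis) in each of 23 mouse lungs, by group, with the group mean as a line. Filled points are libraries of the first set and open points libraries of the second set. Cxcl1, Cxcl2, Cxcl3 and Cxcl5 are lowest in air, and their LPS+nAAT means lie between those of air and LPS, while Cxcl15 lies between 1175 and 2323 CPM in every group.

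Native AAT after LPS was compared with LPS alone. Cxcl2 fell, and the other 5 genes did not pass. All genes called lower made up 0.146% of those tested.

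Cxcl2 was at 3.06, 2.87, 3.31, 3.80 and 3.17 CPM in LPS+nAAT mice 4101 to 4105, against 4.92 to 14 CPM in LPS. Every LPS+nAAT mouse was below every LPS mouse. The log2 fold change was -1.28 ± 0.25 (adjusted p = 0.0186). The 5 LPS+nAAT mice also lay above the 3 air mice, whose highest value was 2.23 CPM, but that difference did not pass (log2 fold change 0.64 ± 0.31, adjusted p = 0.298). The fall from LPS lost its call in a fit of only these groups (adjusted p = 0.0642) and without LPS+nAAT mouse 4103 (0.0522), at log2 fold changes of -1.29 in both. Over the 10 fits with 1 mouse of these groups left out, the log2 fold change ran from -1.41 to -0.97.

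Cxcl1 was at 7.39, 4.22, 7.33, 7.37 and 8.88 CPM in LPS+nAAT. The highest of these lies just under the lowest LPS value of 9.06 CPM, so the groups did not overlap. The log2 fold change of -0.85 ± 0.21 did not pass (adjusted p = 0.0585). It passed under the Wald test (0.00783) and with the library set as a term in the model (0.0491).

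Cxcl3 was at 18.1, 20.1, 18.7, 37.4 and 27.9 CPM and Cxcl5 at 4.79, 3.46, 4.90, 6.51 and 4.5 CPM in LPS+nAAT. Both overlapped LPS, and mouse 4104 was the highest of the group for Cxcl2, Cxcl3 and Cxcl5. The fitted values were -0.56 ± 0.34 for Cxcl3 (adjusted p = 0.456) and -0.68 ± 0.34 for Cxcl5 (adjusted p = 0.358). The 95% intervals for the fold reached from 0.415 to 1.10 for Cxcl3 and from 0.382 to 1.02 for Cxcl5, and that of Cxcl2 from 0.287 to 0.590, so the 3 intervals overlap.

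Cxcl15 was at 2323, 1359, 1818, 1945 and 2166 CPM and Cxcr2 at 27.4, 46.8, 36.2, 32.6 and 18.5 CPM in LPS+nAAT. Both group means were higher than in LPS, with overlap. The log2 fold changes were 0.40 ± 0.14 for Cxcl15 (adjusted p = 0.162) and 0.45 ± 0.21 for Cxcr2 (adjusted p = 0.313). Mouse 4102 was the highest for Cxcr2 and the lowest for Cxcl1, Cxcl2, Cxcl5 and Cxcl15.

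Oxidized AAT after LPS gave no call among the 6 genes against LPS, where 4.71% of all genes were called in either direction. Those 808 calls fell to 6 with the library set as a term, 13 with the first set alone and 15 with only these groups, and ran from 167 (without mouse 5103) to 1881 (without mouse 5102) when an LPS+oxAAT mouse was left out. Leaving out an LPS mouse gave 234 (mouse 1102) to 1552 (mouse 1105). None of the 6 reached an unadjusted p under 0.05 by edgeR or by the Wald test. Cxcl1 was at 9.08, 13.4, 15.3, 11.8 and 13.9 CPM in LPS+oxAAT mice 5101 to 5105, a fold of 1.01 with a 95% interval of 0.749 to 1.36. Cxcl2 was at 7.84, 4.81, 6.99, 7.28 and 13.6 CPM, a fold of 1.03 (0.729 to 1.46). Changes within these intervals, in either direction, cannot be told from none at this number of mice.

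Cxcl3 was at 39.2, 16.3, 46.2, 43.8 and 66.9 CPM and Cxcl5 at 11.3, 5.35, 8.95, 14.6 and 18.2 CPM in LPS+oxAAT. Mouse 5105 was the highest and mouse 5102 the lowest for Cxcl2, Cxcl3 and Cxcl5. The log2 fold changes against LPS were 0.24 ± 0.33 for Cxcl3 and 0.60 ± 0.33 for Cxcl5 (adjusted p = 0.731 and 0.319). With first-set libraries alone, which leave mice 5101 and 5102, they were -0.38 ± 0.40 and 0.11 ± 0.32. Cxcl15 was at 1535, 1614, 1708, 1856 and 1501 CPM and Cxcr2 at 24, 16.6, 18.6, 20.4 and 19.5 CPM, within or beside the LPS range.

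Recombinant AAT after LPS showed higher Cxcl5 than LPS, and the other 5 genes did not pass. Of all genes, 6.47% were called higher in this comparison. Cxcl5 was at 32.7, 10.8, 27.1, 13.9 and 40.2 CPM in LPS+recAAT mice 6101 to 6105. The lowest of these lies just above the highest LPS value of 10.6 CPM. The log2 fold change was 1.71 ± 0.33 (adjusted p = 0.00289), or 3.26-fold (95% interval 2.02 to 5.27). With the library set as a term it was 0.95 ± 0.56 (adjusted p = 0.747), a fit in which 0 of all genes were called.

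Cxcl3 was at 43.6, 81.4, 87.5, 40.5 and 96.9 CPM in LPS+recAAT and overlapped LPS only through LPS mouse 1105. Its log2 fold change of 0.96 ± 0.34 did not pass (adjusted p = 0.0812), and passed without mouse 1105 (1.19, adjusted p = 0.0267). With the set as a term it was 0.04 ± 0.55. Cxcl1 was at 22, 14.4, 16.1, 11.9 and 17.8 CPM (0.39 ± 0.21, adjusted p = 0.257), and Cxcl2 at 8.44, 7.91, 9.75, 6.95 and 11.9 CPM (0.20 ± 0.24, adjusted p = 0.659).

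Cxcl15 was at 1284, 1175, 1469, 1259 and 1730 CPM in LPS+recAAT, with a log2 fold change against LPS of -0.07 ± 0.14 (adjusted p = 0.815). Cxcr2 was at 23.5, 17.6, 19.3, 25.8 and 31.7 CPM, with a fold of 0.997 and a 95% interval of 0.740 to 1.34 (adjusted p = 0.993). The group mean of Cxcr2 was 23.6 CPM against 23.7 CPM in LPS.

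**Figure D2:**
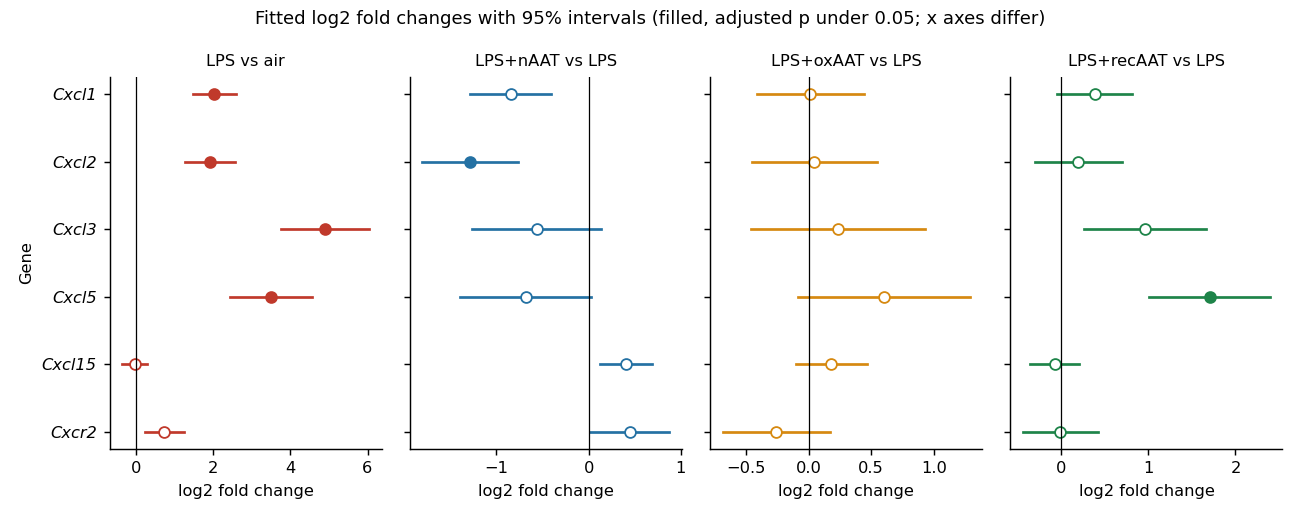
Fitted log2 fold change of each gene (point) with its 95% interval (line) in LPS against air and in each AAT group against LPS, and filled points are called at an adjusted p under 0.05. The 4 inducible chemokines lie to the right in LPS against air, and against LPS the calls are Cxcl2 with nAAT (-1.28) and Cxcl5 with recAAT (1.71).

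Against air, each AAT group can be read beside LPS, with the same 3 air mice in all. In LPS+nAAT, 3.95% of all genes were called higher, and Cxcl1 (2.28-fold), Cxcl3 (20.3-fold), Cxcl5 (7.08-fold) and Cxcr2 (2.28-fold) were among them, while Cxcl2 was not. In LPS+oxAAT, where 2.72% of all genes were called higher, Cxcl1 (4.13-fold), Cxcl2 (3.91-fold), Cxcl3 (35.3-fold) and Cxcl5 (17.2-fold) rose. In LPS+recAAT, where 4.21% were, Cxcl1 (5.37-fold), Cxcl2 (4.37-fold), Cxcl3 (58.3-fold) and Cxcl5 (37.0-fold) rose. With the library set as a term, the log2 fold changes with recAAT were 2.14 for Cxcl1, 1.56 for Cxcl2, 4.94 for Cxcl3 and 4.46 for Cxcl5, and Cxcl2 lost its call (adjusted p = 0.0797). With oxAAT they were 1.87, 1.60, 4.52 and 3.61 in that order, and all 4 passed.

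Cxcr2 passed against air in LPS+nAAT, where every mouse lay above every air mouse (log2 fold change 1.19 ± 0.25, adjusted p = 0.00359). It did not pass in LPS+oxAAT (0.48 ± 0.25, 0.384) or in LPS+recAAT (0.74 ± 0.25, 0.0805). In LPS+recAAT it passed by the Wald test (0.0307) and with only these groups in the model (0.0447). The difference between nAAT and oxAAT did not pass either (-0.71 ± 0.21 for oxAAT against nAAT, adjusted p = 0.147), nor did that between nAAT and recAAT (-0.45 ± 0.21 for recAAT against nAAT, 0.305). Cxcl15 passed in no comparison with air. The rise of Cxcl1 in LPS+nAAT lost its call without air mouse 2102 (adjusted p = 0.0636).

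The AAT preparations were also compared with each other, at the same dose and time. Between oxAAT and nAAT, Cxcl2 was higher with oxAAT (log2 fold change 1.32 ± 0.25, adjusted p = 0.0262), with no overlap between 2.87 to 3.80 and 4.81 to 13.6 CPM. Of all genes, 0.216% were called higher there. Cxcl1 did not overlap either (0.86 ± 0.21) but did not pass (adjusted p = 0.0712). The Cxcl2 call was lost with first-set libraries alone (0.97 ± 0.30, adjusted p = 0.464), with the set as a term (0.96, 0.392), in a model limited to these groups (1.34, 0.051), and without any 1 of the 5 LPS+nAAT mice or of LPS+oxAAT mice 5103, 5104 and 5105 (adjusted p 0.0521 to 0.0873).

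Between recAAT and nAAT, 4 of the 6 genes were higher with recAAT, and 1.21% of all genes were. The log2 fold changes were 2.39 ± 0.34 for Cxcl5 (adjusted p = 0.00202), 1.52 ± 0.34 for Cxcl3 (0.0247), 1.48 ± 0.25 for Cxcl2 (0.00425) and 1.24 ± 0.21 for Cxcl1 (0.00425). The groups did not overlap for any of these 4. They lie in different library sets, and the share of all genes without overlap is not given here. With the library set as a term the values were 1.63, 0.60, 0.92 and 0.96 in the same order, and none passed (adjusted p 0.324 to 0.685). Cxcl3 also lost its call without LPS+nAAT mouse 4101, 4102, 4103 or 4105 or LPS+recAAT mouse 6103 or 6105 (adjusted p 0.0524 to 0.0658).

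Between recAAT and oxAAT, none of the 6 passed, and 3 genes in all, 0.0175%, were called in either direction, with 497 at an unadjusted p under 0.05. Cxcl5 and Cxcl3 were at unadjusted p under 0.05. Their log2 fold changes were 1.10 ± 0.33 and 0.73 ± 0.33, both with an adjusted p of 1.0. The 95% interval for the fold of Cxcl5 was 1.35 to 3.43. The DESeq2 Wald test called 0 of the 6.

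The order of the group means was the same for all 4 inducible chemokines: air, LPS+nAAT, LPS, LPS+oxAAT, LPS+recAAT. For Cxcl1 the means were 3.08 ± 1.0 (SD, n = 3), 7.04 ± 1.71, 12.6 ± 3.87, 12.7 ± 2.38 and 16.4 ± 3.80 CPM (n = 5 each). Among neighbours in this order, only air and LPS+nAAT differed by the test for Cxcl1, Cxcl3 and Cxcl5, and only LPS+nAAT and LPS for Cxcl2. LPS, LPS+oxAAT and LPS+recAAT did not differ between neighbours for any of the 4. For Cxcr2 the order was air, LPS+oxAAT, LPS+recAAT, LPS and LPS+nAAT, with means of 14.2 ± 3.53, 19.8 ± 2.72, 23.6 ± 5.59, 23.7 ± 6.09 and 32.3 ± 10.5 CPM. For Cxcl15 it was LPS+recAAT, LPS, air, LPS+oxAAT and LPS+nAAT, from 1383 ± 222 to 1922 ± 370 CPM. No neighbours in the orders of Cxcr2 and Cxcl15 differed by the test.

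Levels of different genes were compared per kilobase of the principal transcript. Cxcl15 was the most abundant by far, at 697 ± 149 CPM per kilobase in air and 683 ± 102 in LPS. In air it held 99.0% ± 0.304 (SD, n = 3) of the CPM per kilobase of the 5 chemokine genes, in LPS 92.0% ± 1.42 (n = 5) and in LPS+recAAT 85.7% ± 2.54. The level of Cxcl15 itself passed in none of the 10 comparisons as fitted here. It came closest in LPS+recAAT against LPS+nAAT, at a log2 fold change of -0.47 ± 0.14 (adjusted p = 0.0756). That difference passed in 4 of 16 alternatives: by the Wald test (0.0258), with a replicate block (0.0403), and without LPS+nAAT mouse 4102 (0.0347) or LPS+recAAT mouse 6105 (0.0422).

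Among the 4 inducible genes the make-up was not the same with and without LPS. In air, Cxcl1 held 47.7% ± 3.21 (SD, n = 3) of their CPM per kilobase, Cxcl2 28.8% ± 6.06, Cxcl3 17.2% ± 4.54 and Cxcl5 6.36% ± 0.705. In LPS, Cxcl3 held 58.2% ± 3.81 (n = 5), Cxcl1 22.3% ± 3.95, Cxcl2 11.4% ± 1.21 and Cxcl5 8.12% ± 1.23. The highest air share of Cxcl3 was 20.1% and the lowest LPS share 55.0%. Shares are bound to sum to 100%, and they depend on the length used: with the union of exons, Cxcl3 held 41.1% ± 3.60 in LPS and Cxcl5 (16.6% ± 2.35) stood above Cxcl2 (14.9% ± 1.63). Cxcl3 was the largest in LPS and Cxcl1 the largest in air with either length.

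**Figure D3:**
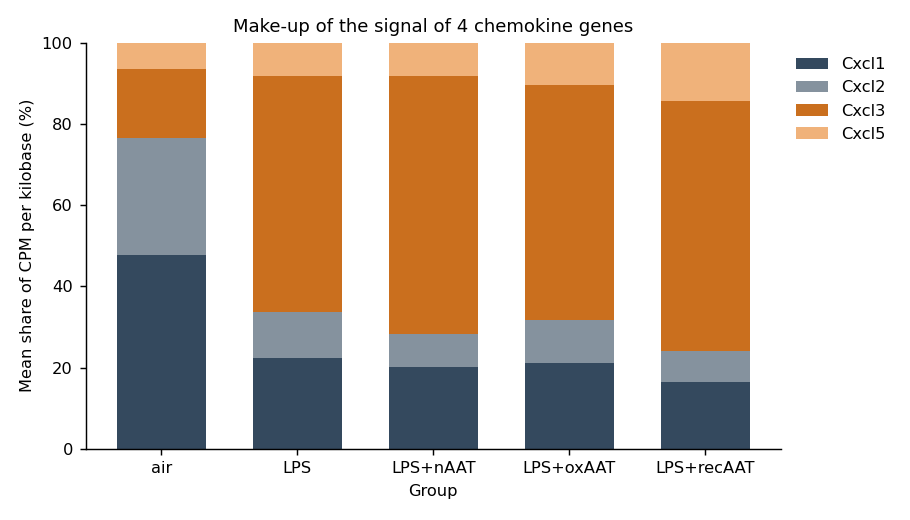
Mean share of each of 4 inducible chemokine genes in their summed CPM per kilobase of principal transcript (%), by group. Cxcl1 is the largest share in air (47.7%) and Cxcl3 the largest in the 4 groups given LPS (57.9% to 63.5%).

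The share of Cxcl5 was 8.32% ± 1.32 in LPS+nAAT, 10.5% ± 2.11 in LPS+oxAAT and 14.3% ± 5.77 in LPS+recAAT, with a range of 6.29% to 22% in the last. The summed CPM of the 4 genes was 7.02 ± 1.74 in air, 64.2 ± 22.6 in LPS, 39.6 ± 10.1 in LPS+nAAT, 75.0 ± 26.1 in LPS+oxAAT and 120 ± 35.3 in LPS+recAAT.

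The spread between mice is given beside the error from counting alone. In LPS the coefficient of variation (SD over mean) was 46.0% for Cxcl2, 37.5% for Cxcl3, 32.6% for Cxcl5 and 30.8% for Cxcl1, against a counting error of 7.25%, 3.31%, 7.16% and 5.63%. In LPS+nAAT, Cxcl2 varied by 10.8%, close to its counting error of 10.3%. In air it varied by 9.55%, under its counting error of 13.1%. Cxcl15 varied by 8.73% to 21.4% over the groups, with a counting error of at most 0.537%.

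The same mice tended to be high for several chemokines. Mouse 1105 was the highest of the LPS group for all 4 inducible genes, mouse 5105 of the LPS+oxAAT group and mouse 6105 of the LPS+recAAT group for Cxcl2, Cxcl3 and Cxcl5, and mouse 4104 of the LPS+nAAT group for the same 3. Deviations of log2 CPM from the group mean, over 23 libraries, correlated with Pearson's r of 0.77 between Cxcl2 and Cxcl5, 0.75 between Cxcl2 and Cxcl3 and 0.61 between Cxcl3 and Cxcl5. Spearman's rho was 0.84, 0.67 and 0.59. These points share their library, so these values are a description. Without the 2 mice farthest from the median of the first gene named, r was 0.80, 0.70 and 0.45.

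Cxcl1 was less like the others, with r of 0.44 with Cxcl2, 0.35 with Cxcl3 and 0.49 with Cxcl5, and 0.54 with Cxcl15. Without the 2 farthest mice these were 0.48, 0.37, 0.50 and 0.38. The r with Cxcl15 was not particular to Cxcl1: over 23 libraries Cxcl15 had r of 0.51 with Cxcl5, 0.42 with Cxcl2 and 0.22 with Cxcl3. The r of Cxcr2 with the 5 chemokines ran from -0.32 (Cxcl15) to 0.15 (Cxcl2). Mice 1105 and 6105 were nevertheless also the highest of their groups for Cxcr2.

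**Figure D4:**
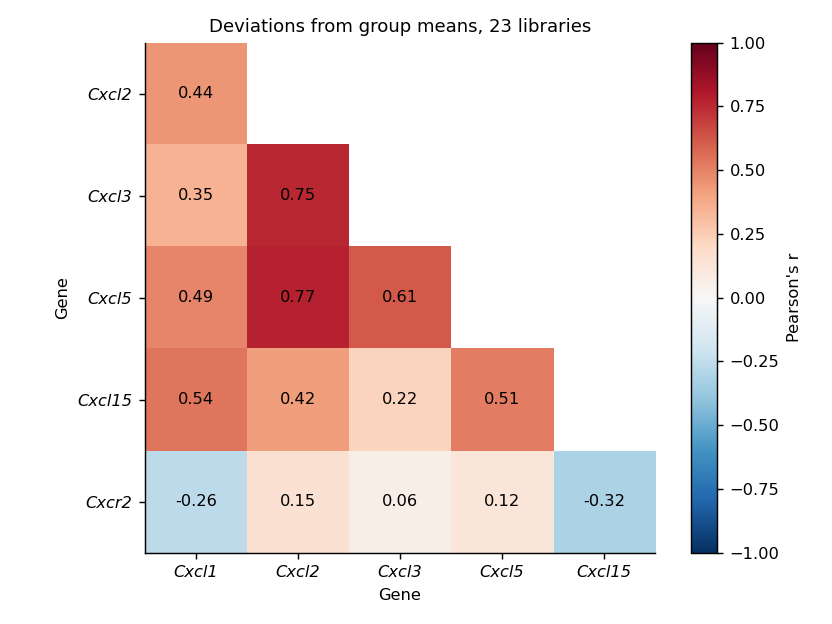
Pearson's r between each pair of the 6 genes, of log2 CPM deviations from group means over 23 libraries. The highest values are among Cxcl2, Cxcl3 and Cxcl5 (0.61 to 0.77), and Cxcr2 lies between -0.32 and 0.15 with every chemokine.

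Among 13026 tested genes with a symbol and an average log2 CPM of at least 1 (predicted genes and receptor segments left out), the 3 whose deviations over the 23 libraries were most like each member were named. They are the highest of many correlations and are given as such. For Cxcl2 they were Cxcl13 (r = 0.87), a chemokine for B cells, Ccl3 (0.82), a chemokine for monocytes and neutrophils, and Serpinb6b (0.81). For Cxcl5 they were Crem (0.82), a cAMP-responsive transcription factor, Hspe1 (0.77) and Cxcl2 (0.77). For Cxcl3 they were Stil (0.81), Vnn1 (0.78) and H19 (0.76).

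For Cxcl15 the most alike were Msmo1 (r = 0.86), an enzyme of cholesterol synthesis, Tmem243 (0.78) and Yrdc (0.77). For Cxcl1 they were Ap1s2 (0.72), Zfand5 (0.72) and Zfand6 (0.71), the lowest top values of the 6 members. For Cxcr2 they were Ccr1 (0.85), a chemokine receptor of myeloid cells, Il1f9 (0.83) and S100a8 (0.83), a calcium-binding protein of neutrophil cytosol.

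Cxcr2 was then set beside 13 markers of mature neutrophils. Over 23 libraries its deviations had r of 0.83 with S100a8, 0.79 with Il1r2 and 0.71 with S100a9, and of -0.26 with G0s2 and -0.32 with Hdc. The summed level of the markers was 266 to 291 CPM in air, 305 to 379 in LPS, 299 to 645 in LPS+nAAT, 194 to 278 in LPS+oxAAT and 224 to 398 in LPS+recAAT, and none was at 0 in a whole group. LPS+nAAT mouse 4102, the highest for Cxcr2, was the highest for this sum, and mouse 4105 was the lowest of its group for both. Of the 13 markers, 2 rose in LPS against air, where 2.71% of all genes were called higher. They were Clec4d (log2 fold change 1.37 ± 0.14, adjusted p = 4.19e-07) and Il1r2 (2.06 ± 0.34, 0.000406). None of the 13 passed in LPS+nAAT against LPS (median of the list 0.55), where 102 of all 17148 genes were called. Hdc fell in LPS+recAAT against LPS (-0.60 ± 0.14, adjusted p = 0.00701), where 346 of 17148 genes were called lower. The Hdc call was lost with the library set as a term, a fit in which 0 of all genes were called.

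Per 1000 CPM of these markers, Cxcr2 was at 50.6 ± 12.7 CPM in air (SD, n = 3), 69.1 ± 17.6 in LPS, 71.5 ± 9.02 in LPS+nAAT, 81.5 ± 15.5 in LPS+oxAAT and 84.0 ± 5.28 in LPS+recAAT (n = 5 each). The LPS+nAAT and LPS ratios overlap, at 62.0 to 84.3 and 49.1 to 92.4, as do the levels of Cxcr2 itself. The sum weighs each marker by its level. In air the highest means were those of Hdc (92.5 CPM), S100a9 (78.2), S100a8 (31.0) and G0s2 (28.5). Hdc and G0s2 had a negative r with Cxcr2, so the ratio cannot be read as a level per neutrophil. The part of neutrophil number in the Cxcr2 values was not tested.

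**Figure D5:**
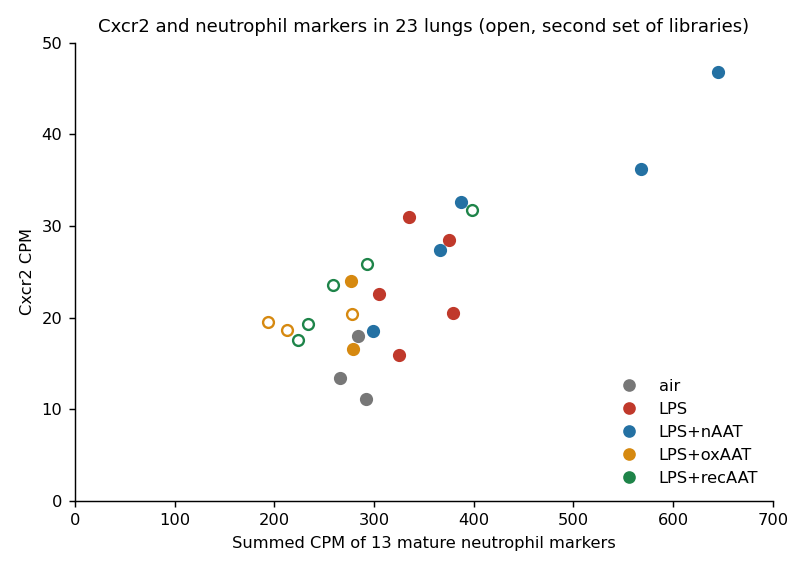
Cxcr2 (CPM) against the summed CPM of 13 mature neutrophil markers in each of 23 lungs, coloured by group, with open points for libraries of the second set. LPS+nAAT mouse 4102 is the highest for both (645 and 46.8 CPM), and air mice lie at 266 to 291 CPM of markers.

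Other genes of the pathway are given from lists. For each list below, the share of all genes called higher in LPS against air was 2.71%, and 288 of 17148 genes were called lower. Of 10 other CXC ligands, 4 rose in LPS against air and none fell (median log2 fold change 0.69, against -0.01 over all genes): the interferon-induced Cxcl10 (1.88 ± 0.23), Cxcl9 (2.0 ± 0.43) and Cxcl11 (3.36 ± 0.88), and platelet factor Pf4 (0.78 ± 0.20). None of the 10 passed in LPS+nAAT or LPS+oxAAT against LPS, where 102 and 808 of all 17148 genes were called in either direction. In LPS+recAAT against LPS, 1 rose, the platelet chemokine Ppbp (0.70 ± 0.18, adjusted p = 0.0183), itself a ligand of Cxcr2, from 3.97 ± 0.982 to 6.41 ± 1.09 CPM. Of 7 platelet markers, 1 was called there, Ppbp itself. Of 9 other CXC and atypical receptors, none passed in LPS against air, and Cxcr1, the receptor nearest to Cxcr2, was at 2.29 ± 0.612 CPM in air and 1.36 ± 0.307 in LPS (adjusted p = 0.131). In LPS+recAAT against LPS 1 receptor fell, the B cell receptor Cxcr5 (-0.73 ± 0.18, adjusted p = 0.0119). Over all genes, 1110 of 17148 were called higher and 346 lower in that comparison. With the library set as a term, 0 of all genes were called there, so the Ppbp and Cxcr5 calls were lost in that fit.

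Upstream of the chemokines, 4 of 16 tested inducers rose in LPS against air and none fell: Cd14 (2.23 ± 0.16), a part of the LPS receptor, Tnf (1.49 ± 0.26), Il1b (1.04 ± 0.23) and Myd88 (0.31 ± 0.09). None of the 16 passed in LPS+nAAT against LPS, where Cxcl2 fell and 102 of all 17148 genes were called in either direction. Cd14 came closest, from 134 ± 18.3 CPM in LPS to 94.4 ± 13.9 CPM (-0.51 ± 0.12, adjusted p = 0.0552), while the median of the list was -0.03. None passed in LPS+oxAAT against LPS, where 808 of all 17148 genes were called in either direction. In LPS+recAAT against LPS 1 fell, Rela (-0.44 ± 0.11), and 346 of all 17148 genes were called lower. The Rela call was lost with the library set as a term, a fit in which 0 of all genes were called. Of 18 inducers listed, Il17a and Il17f were too low to test.

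Of 8 genes for proteins that bind AU-rich mRNA, Zc3h12a rose (0.80 ± 0.12) and Zfp36l2 fell (-0.31 ± 0.09) in LPS against air. Zfp36, which promotes decay of such mRNAs, was lower than in LPS with each preparation: from 247 ± 47.4 CPM to 112 ± 11.5 with nAAT (-1.14 ± 0.14, adjusted p = 0.000349), 163 ± 32.1 with oxAAT (-0.60 ± 0.14, 0.015) and 132 ± 17.2 with recAAT (-0.90 ± 0.14, 0.000665). These comparisons share the 5 LPS mice, and air mice were at 299 ± 64.2 CPM. A related gene, Zfp36l1, was higher than in LPS with oxAAT (0.58 ± 0.11, adjusted p = 0.00393) and recAAT (0.64 ± 0.11, 0.000832), and Tia1 with recAAT (0.56 ± 0.17, 0.0393). With the library set as a term, 0 of all genes were called in LPS+recAAT against LPS, so the recAAT calls given here were lost in that fit. In LPS+oxAAT against LPS, calls over all genes went from 808 to 6 in that fit. Whether the oxAAT calls of Zfp36 and Zfp36l1 are among the 6 is not given here. Against LPS, Cxcl2 was called lower with nAAT and Cxcl5 higher with recAAT, and a part of Zfp36 in either was not tested.

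Downstream of Cxcr2, 3 of 18 signalling genes rose in LPS against air, Vav1 (0.50 ± 0.12), Pik3r5 (0.52 ± 0.13) and Fgr (0.50 ± 0.14), and Gng2 fell (-0.48 ± 0.13). Of 15 tested partners of neutrophil recruitment, 4 rose: the formyl peptide receptor Fpr2 (0.78 ± 0.14), Csf2 (1.37 ± 0.25), the integrin chain Itgb2 (0.51 ± 0.13) and Selplg (0.52 ± 0.14). In LPS+nAAT against LPS, Fpr2 was higher still (0.49 ± 0.11, adjusted p = 0.0391), and none of the 18 signalling genes passed. Over all genes, 77 of 17148 were called higher and 25 lower in that comparison. With oxAAT, Gng2 rose (0.45 ± 0.12) and Plcb3 fell (-0.24 ± 0.07), and with recAAT, Plcb3 (-0.25 ± 0.07) and Pik3r5 (-0.38 ± 0.11) fell. With the library set as a term, calls over all genes against LPS went from 808 to 6 with oxAAT and from 1456 to 0 with recAAT. The recAAT calls were thus lost in that fit, and whether the oxAAT calls are among the 6 is not given here.

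Markers of cells that could make these chemokines were read beside them. In LPS+nAAT against LPS, no marker passed among 8 of alveolar macrophages, 8 of alveolar type 2 cells, 8 of airway secretory cells, 7 of monocytes and 6 of endothelium. There 102 of all 17148 genes were called in either direction. The list medians were 0.39, 0.04, -0.46, 0.23 and -0.13 in that order. The macrophage markers Ear2 (0.59 ± 0.15, adjusted p = 0.0585) and Mrc1 (0.54 ± 0.14, 0.0735) came closest, while Fabp4 of that list was lower (-0.39 ± 0.52). In LPS+recAAT against LPS, where 1456 of all 17148 genes were called, none of these 37 passed either. In LPS against air, the macrophage markers Marco (2.60 ± 0.32) and Plet1 (0.37 ± 0.10) rose and Ear2 fell (-0.61 ± 0.17), with a median of 0.29 over that list of 8. Of the 8 type 2 markers only Sftpd was called, and it rose (1.03 ± 0.11), while the median of that list was -0.003. In LPS+recAAT against LPS+nAAT, where Cxcl1, Cxcl2, Cxcl3 and Cxcl5 were higher, 4 of 8 macrophage markers were lower (median of the list -0.66): Marco (-1.0 ± 0.24), Siglecf (-0.64 ± 0.14), Ear2 (-0.74 ± 0.15) and Krt79 (-0.82 ± 0.21). The type 2 marker Abca3 (-0.31 ± 0.08) and the neutrophil marker Hdc (-0.63 ± 0.14) were lower there too. Over all genes, 124 of 17148 were called lower in that comparison. In LPS+oxAAT against LPS+nAAT, where Cxcl2 was higher, 3 of 13 neutrophil markers were lower (median of the list -0.81): S100a8 (-1.50 ± 0.32), S100a9 (-1.59 ± 0.31) and Clec4d (-0.54 ± 0.11). Over all genes, 22 of 17148 were called lower there. The markers given for these comparisons between preparations were named after their values were seen. With the library set as a term, calls over all genes went from 331 to 0 in LPS+recAAT against LPS+nAAT. In LPS+oxAAT against LPS+nAAT they went from 59 to 1, a gene higher with oxAAT. None of these marker calls was thus kept in that fit. The summed level of the alveolar macrophage markers was 693 to 986 CPM in LPS+nAAT and 530 to 706 in LPS, and that of the type 2 markers 29170 to 35653 and 28682 to 35848 CPM. No marker of these lists was at 0 in a whole group, and their part in the chemokine levels was not tested.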

How the data were processed

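Lung poly(A) RNA of 23 mice was sequenced with a stranded kit, per the labels' protocols. Values are the authors' deposited raw read counts per Ensembl gene. FastQC 0.11.8, Trimmomatic 0.38 and 0.36, STAR 2.4.0.1, HTSeq 0.11.1 and GRCm38 are named in the submitters' processing notes, and neither the strand setting nor the annotation release is stated there. Reads of no feature (6.79% to 13.1%), ambiguous (1.12% to 1.39%) or not unique (4.09% to 6.08%) were left out.

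Groups came from the sample titles. Counts were filtered with filterByExpr, scaled by TMM (factors 0.978 to 1.028) and tested with edgeR 4.0.16 (quasi-likelihood, robust, R 4.3.3, limma 3.58.1) in 1 model of 23 libraries and 10 contrasts, with Benjamini-Hochberg adjustment over 17148 genes at 0.05. Intervals are 95% intervals. Log2 CPM for correlations used a prior count of 2. The fit was tested on simulated data. The library sets were split at an mt-Nd6 count of 2% of mt-Nd5. DESeq2 1.42.0 gave the Wald test. Other alternatives were DESeq2 size factors, no filter beyond 1 count, only the groups compared, a replicate block, the library set as a term or 1 set alone, and each library left out.

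Named were all 6 members, up to 4 genes per list with the smallest adjusted p in LPS against air, list genes called in an AAT group against LPS, and the 3 genes most like each member. The members and lists were chosen with earlier results of these data known. Symbols came from GENCODE mouse annotation. Promoters came from RefSeq (GRCm38.p6).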

Additional observations from a re-analysis of the deposited data

Results flagged for a closer look

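These results were picked out because effects against LPS differed between AAT preparations by a direct test (edgeR quasi-likelihood contrast, Benjamini-Hochberg over all genes). The effect of oxAAT on Cxcl2 was higher than that of nAAT by 1.32 on the log2 scale. The effects of recAAT were higher than those of nAAT by 2.39 for Cxcl5, 1.52 for Cxcl3, 1.24 for Cxcl1 and 1.48 for Cxcl2. None of the 5 passed with the library set as a term. No mouse stood apart in any of 24 groups of 5 by Dixon's critical value of 0.71, and Cxcl2 in LPS mouse 1105 came closest (gap over range 0.703).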

How the results depend on the processing

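The number of members called stayed at 4 in LPS against air and in LPS+oxAAT against air when each library was left out, and at 0 in LPS+oxAAT against LPS and in LPS+recAAT against LPS+oxAAT. For LPS+recAAT against air the range was 4 to 4, and for LPS+nAAT against air 3 to 4. By the DESeq2 Wald test the count was 5 in LPS against air and 5 in LPS+recAAT against air. In LPS+recAAT against air, Cxcl2 lost its call with the library set as a term (edgeR adjusted p = 0.0797). For LPS+nAAT against LPS the count of 1 became 2 with the replicate block, 2 with the library set as a term, 2 by the DESeq2 Wald test and 0 with only the groups compared, and was 0 to 1 with 1 library left out. For LPS+recAAT against LPS the count of 1 became 0 with the set as a term and 2 by the Wald test, and was 1 to 2 with 1 library left out. For LPS+oxAAT against LPS+nAAT the count of 1 became 0 with the set as a term, 0 with the first set alone, 0 with only the groups compared and 3 by the Wald test, and was 0 to 2 with 1 library left out. For LPS+recAAT against LPS+nAAT the count of 4 became 0 with the set as a term and 5 by the Wald test, and was 3 to 4 with 1 library left out. The cause was not tested. Of 948 member values under alternatives, 906 kept their side of the threshold, 26 lost a call and 16 gained one, and 29 had the opposite sign, none of them called. The last digits of the mouse numbers did not pair the libraries: same-digit deviations correlated at -0.38 to 0.35, and 5 of 23 libraries were closest to their own digit. With the digit as a replicate block, calls over all genes went from 753 to 1364 in LPS against air, from 102 to 248 in LPS+nAAT against LPS and from 59 to 24 in LPS+oxAAT against LPS+nAAT. With the library set as a term, they went from 1456 to 0 in LPS+recAAT against LPS. In that fit they also went from 331 to 0 in LPS+recAAT against LPS+nAAT and from 59 to 1 in LPS+oxAAT against LPS+nAAT. Depth limits Cxcl3 and Cxcl5 in air, at 15 to 49 counts per library.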
